A study of Equus caballus with 45 samples.

Results

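The genes described here are the mitosis genes, a named module of 51 genes whose products drive a cell from G2 through division: the cyclin-CDK engine of mitotic entry, the mitotic kinases, the spindle checkpoint, the arm of the anaphase-promoting complex (APC/C) that lets sister chromatids part, the spindle motors, the kinetochore, the chromosomal passengers, spindle assembly factors, cytokinesis proteins and the condensins. Members were chosen by gene symbol from that list and not from measured values, and 48 of the 51 had counts under their symbol among the 20881 genes. CCNA2, MKI67 and PTTG1 had none under their symbol and were not analysed here. The study asked how equine mesenchymal stromal cells (MSC) primed through an innate immune receptor change, and how medium conditioned by them acts on inflamed joint cells, by polyA RNA sequencing of 45 libraries.

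Of these, 12 libraries were bone marrow MSC from 3 horses, named 92, 99 and PC, each left untreated, given the TLR3 agonist poly I:C, given the STING agonist 2'3'-cGAMP, or given CpG. Agonist exposure lasted 2 hours, at 10 μg/mL in the design text of the series and 10 ng/mL in the sample labels, and the CpG treatment is not described further in the sources used here. The other 33 libraries were synoviocytes, chondrocytes and blood monocyte-derived macrophages, 11 of each, with each joint cell type taken from 1 horse. In each cell type 1 library had no addition, 1 had the cytokines IL-1β and TNF-α alone, and 9 had the cytokines followed by 24 hours of conditioned medium (CM): medium of resting MSC (resting MSC-CM), of MSC given the TLR3 agonist (TLR-MSC-CM) or of MSC given the STING agonist (STING-MSC-CM), each from donors AG1, ORC and PC. The cytokine dose in the labels was 20 ng/mL for synoviocytes and 10 ng/mL for macrophages. By the paper's methods RNA was not taken during exposure. After poly I:C or 2'3'-cGAMP the MSC were washed and lysed 24 hours later. After CM the joint cells were washed and kept 24 more hours in fresh medium before lysis. In comparisons of conditions or cell types a replicate is therefore a donor of MSC, and in comparisons of donors it is 1 condition of that donor. In joint cells the p-values measure spread among cultures of 1 recipient horse, not among recipient horses.

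Most mitosis genes are transcribed late in the cell cycle, in G2 and M, under the DREAM, B-MYB and FOXM1 system, and their transcripts are scarce in cells that have left the cycle. For this reason their summed RNA is widely read as a mark of how much of a culture is dividing. Expanding stromal cells such as MSC and synovial fibroblasts divide in culture, whereas monocyte-derived macrophages largely do not. In bulk libraries such as these, fewer dividing cells and less mitotic RNA in each dividing cell cannot be told apart.

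Library depth ran from 23525704 to 54103873 counts, so that 3 counts, the floor used here, corresponded to 0.0554 to 0.128 CPM (counts scaled to the library total), for counting error only. Cell labels were checked against marker lists. The 15 macrophage markers summed to 10021 to 13910 CPM in macrophages, 13.4 to 20.1 in synoviocytes and 11.3 to 40.7 in chondrocytes, and to 9.76 to 326 in MSC, where CD68 carried the highest sums. The 11 T and NK cell markers summed to 508 to 915 CPM in macrophages and to at most 5.91 in the other libraries, the 4 B cell markers to 3.56 to 9.74 and the 5 endothelial markers to 25.8 to 154 in all libraries. The 10 chondrocyte markers summed to 160 to 768 CPM in chondrocytes and 149 to 339 in synoviocytes, and the defining cartilage collagen COL2A1 was at 0 to 0.37 CPM in the chondrocytes. The 8 synovial fibroblast markers gave 7151 to 8762 CPM in synoviocytes and 6789 to 11388 in chondrocytes, and the 5 MSC markers 957 to 2133 CPM in MSC and 1199 to 2305 in the joint cells.

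Mitosis gene RNA differed most between cell types and, among MSC, between horses. Summed over the 48 members it made up 0.0393% to 0.330% of the counts in MSC libraries, 0.263% to 0.410% in synoviocytes, 0.187% to 0.331% in chondrocytes and 0.0550% to 0.0950% in macrophages. As a single level per library, the mean of log2(CPM + 1) over the members was 5.34 to 5.98 in synoviocytes, 4.88 to 5.65 in chondrocytes, 3.28 to 3.98 in macrophages and 2.79 to 5.71 in MSC. The MSC range overlapped all 3 joint cell types, while macrophages lay below every synoviocyte and chondrocyte library.

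**Figure D1:**
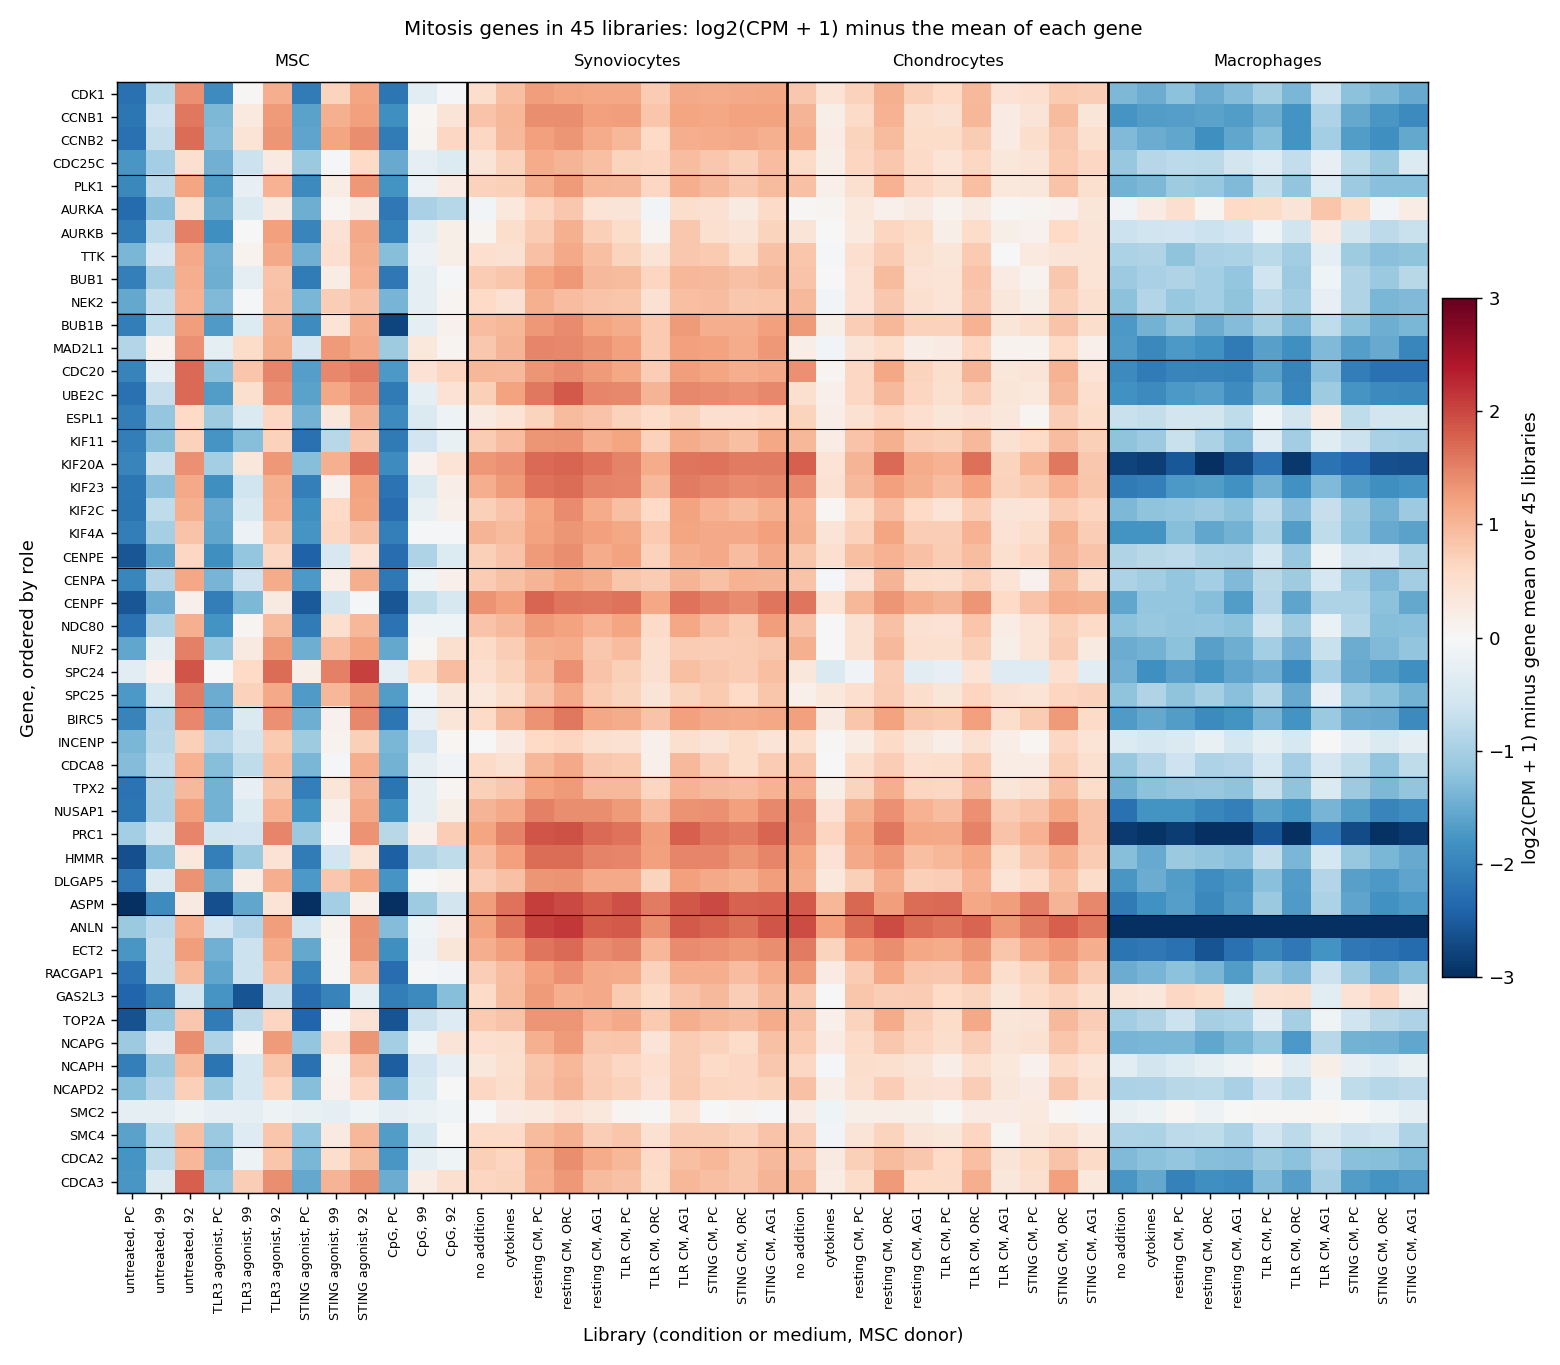
Levels of the 48 mitosis genes (vertical axis, ordered by role) in the 45 libraries (horizontal axis), as log2(CPM + 1) minus the mean of the gene over all libraries, with the colour clipped at 3 either way. Macrophage libraries and the MSC of donor PC form low blocks across nearly all members, and the synoviocyte columns and those of donor 92 other than CpG form high ones.

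**Figure D2:**
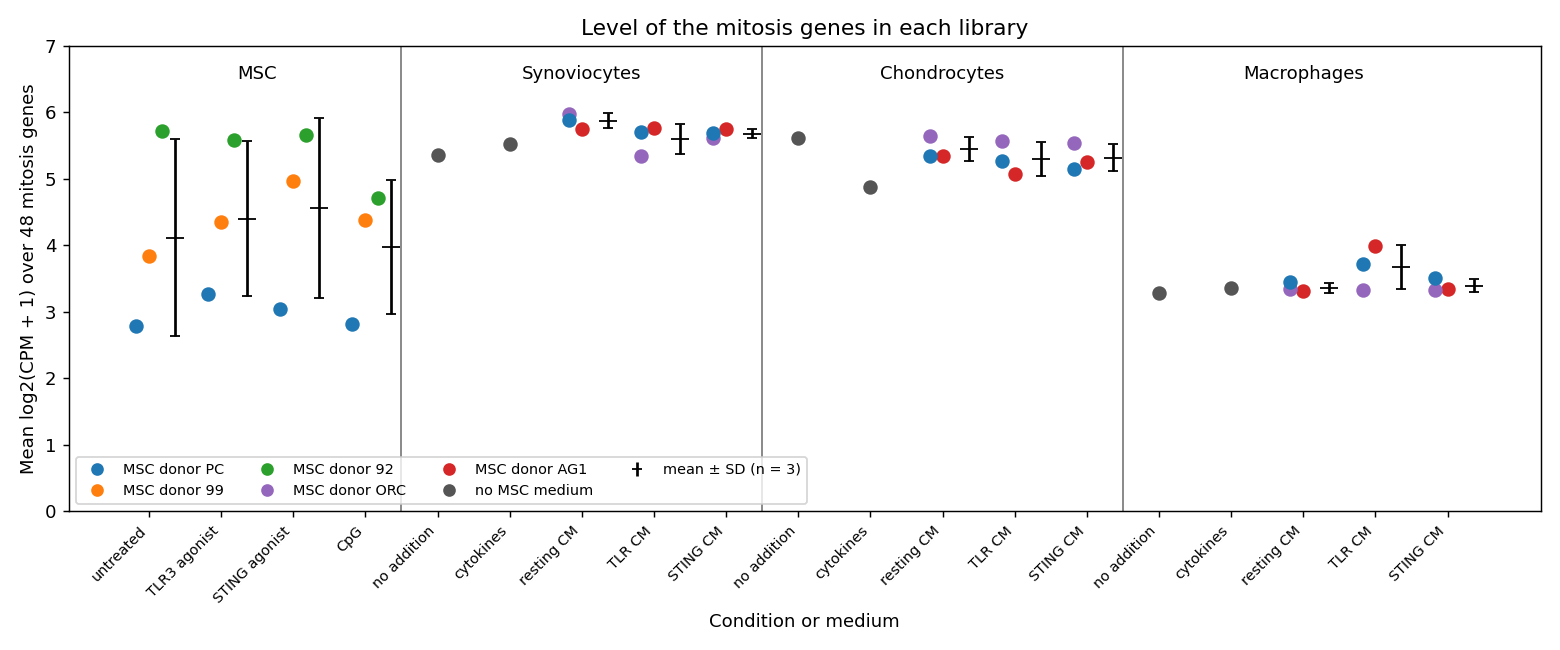
Mean log2(CPM + 1) over the 48 members (vertical axis) for each library (points), by cell type and condition (horizontal axis), with the mean and SD where a group has 3 libraries. The 3 MSC donors of each condition lie far apart, from 2.79 to 5.71 in untreated MSC. The joint cell groups spread less, most widely in macrophages with TLR-MSC-CM (3.32 to 3.98, SD 0.333). All macrophages lie between 3.28 and 3.98.

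Macrophages had less RNA of nearly every mitosis gene than either other joint cell type in resting MSC-CM. Against synoviocytes, 47 of the 48 members were lower at an adjusted p under 0.05 (quasi-likelihood F test of edgeR, Benjamini-Hochberg adjusted across all genes, as for every adjusted p below), where 34.4% of the 16584 genes tested were lower, and the median log2 fold change was -2.63. Over all genes the median stayed between -0.02 and 0.04 in each of the 36 comparisons described here. Against chondrocytes 45 members were lower, beside 33.9% of all genes, with a median of -2.14. ANLN, which encodes the contractile ring scaffold anillin, was at 222, 275 and 264 CPM in synoviocytes given resting MSC-CM of AG1, ORC and PC, at 203, 249 and 202 CPM in chondrocytes, and at 4.48, 5.02 and 6.24 CPM in macrophages. The macrophage values lay far under all 6 others, and the log2 fold changes were -5.62 ± 0.19 (SE, adjusted p = 3.7e-17) against synoviocytes and -5.39 ± 0.19 against chondrocytes.

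Other members were also far lower in macrophages. PRC1, which bundles midzone microtubules, differed by -5.07 ± 0.25 on the log2 scale between macrophages and synoviocytes, KIF20A, a motor of the midzone, by -4.66 ± 0.30, and ECT2, the exchange factor that switches on RhoA at the division plane, by -4.16 ± 0.16. ASPM and NUSAP1, which act on spindle poles and spindle microtubules, differed by -3.84 ± 0.19 and -3.55 ± 0.18. By role, the median differences were -3.47 for cytokinesis and also for the APC/C arm, -3.40 for spindle assembly, -3.15 for the checkpoint genes, -2.88 for the cyclin-CDK genes, -2.71 for motors, -2.63 for the kinetochore, -2.27 for the mitotic kinases, -2.0 for the passengers and -1.80 for chromosome structure. All 10 of these medians were below 0.

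AURKA, the kinase of spindle poles, was the exception. It was at 49.2, 33.9 and 46.0 CPM in macrophages, 43.1, 56.7 and 51.3 in synoviocytes and 39.0, 35.8 and 40.1 in chondrocytes, so that the 3 groups overlapped. Its log2 fold change was -0.25 ± 0.16 against synoviocytes (adjusted p = 0.18) and 0.15 against chondrocytes (adjusted p = 0.41). Against chondrocytes GAS2L3, which links microtubules and actin in late division, also missed the threshold (-0.51, adjusted p = 0.061), as did the condensin subunit SMC2, whose counts were near the floor in many libraries.

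Chondrocytes were modestly lower than synoviocytes in resting MSC-CM. All 48 members had a lower fitted value (median -0.41), and 13 were lower at an adjusted p under 0.05, beside 11.1% of all genes. The checkpoint protein gene MAD2L1 led, at 57.1, 61.7 and 61.7 CPM in synoviocytes and 25.2, 32.5 and 28.9 in chondrocytes (-1.07 ± 0.18, adjusted p = 0.00013), with no overlap. UBE2C, the E2 enzyme of the APC/C, came next, at 107, 138 and 117 CPM against 60.0, 76.5 and 59.2 (-0.90 ± 0.18, adjusted p = 0.00096). The others called were the motors KIF23 and KIF2C, the kinetochore genes SPC24 and NDC80, the condensin genes NCAPH and SMC4, the checkpoint gene BUB1B, the mitotic cyclins CCNB1 (-0.62) and CCNB2, the spindle gene HMMR and CDCA2. The count of 13 depended on which libraries were fitted. It was 42 with donor of the medium as a block (17.5% of all genes in that fit). It was 3 without the chondrocyte resting library of AG1 or of PC or the synoviocyte resting library of ORC. It was 6 without synoviocyte resting PC, 8 without synoviocyte resting AG1, and 21 without chondrocyte resting ORC or with the 9 resting libraries alone. Here and below, unless stated, no share of all genes is given for refits on fewer libraries. Such counts show only how the count depends on the libraries fitted.

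Genes around the module showed the same order of cell types in part. Of 39 DNA replication genes, 28 were lower and 2 higher in macrophages than in synoviocytes, and 23 lower and 3 higher than in chondrocytes. Of 51 further mitosis genes outside the module, 47 were lower and 2 higher than in synoviocytes, and 42 lower and 3 higher than in chondrocytes. The lists that do not follow division one way were mixed. Of 15 other APC/C subunits 7 were lower and 5 higher in macrophages than in synoviocytes (6 and 5 against chondrocytes), of 16 G1 regulators and CDK inhibitors 8 and 6 (8 and 4), and of 23 transcriptional regulators of mitosis genes 10 and 7 in both comparisons. FOXM1, the forkhead factor of G2/M genes, differed by -3.24 and -2.54, and the CDK inhibitor gene CDKN1A by 3.43 and 3.01 in the opposite direction. Between chondrocytes and synoviocytes, 14 further mitosis genes and 3 replication genes were lower and none higher, and the lists gave 1 APC/C subunit lower, 1 G1 gene lower and 5 higher, and 2 regulators each way. CCND2 and CCND1, the D-type cyclins of G1, differed by -4.44 and 1.72 in that comparison.

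Mitosis gene levels in MSC differed by horse of origin. Donor 92 had the most, donor 99 less and donor PC the least, and the median log2 fold changes were 1.72 for 99 against PC (3.30-fold), 2.81 for 92 against PC (7.0-fold) and 0.99 for 92 against 99 (1.99-fold), from 4 libraries a donor with the condition as a term. At an adjusted p under 0.05, 45, 47 and 43 of the 48 members were higher, beside 14.6%, 19.2% and 20.8% of the 15099 genes tested, and none was lower. Each donor was 1 animal, so these are differences between 3 horses or their cultures.

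CDK1, the kinase that drives entry into mitosis, was at 5.33, 7.16, 5.97 and 5.69 CPM in PC cells (untreated, TLR, STING and CpG), at 16.3, 30.0, 46.5 and 22.6 in 99 cells, and at 77, 62.6, 67.1 and 28.3 in 92 cells. All PC values lay below all others, while the CpG library of 92 fell within the range of 99. The log2 fold change of 99 against PC was 2.24 ± 0.30 (adjusted p = 0.00055). NDC80, whose product grips microtubules at the kinetochore, was at 1.96, 2.99, 2.24 and 2.00 CPM in PC, 6.47, 13.8, 18.3 and 12 in 99 and 28.1, 25.8, 26.8 and 11.7 in 92, and CDC20, the activator of the APC/C, at 11.5, 20.4, 14.9 and 14.3, at 40.6, 87.5, 135 and 66.7, and at 162, 137, 146 and 77.4. Both had the order of CDK1, with 99 and 92 overlapping through the CpG library of 92.

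Between 99 and PC the leading genes were the checkpoint kinase-like gene BUB1B (2.09 ± 0.25, adjusted p = 0.00031), NDC80 (2.48 ± 0.30), CDC20 (2.41 ± 0.30), the condensin gene NCAPH (2.01 ± 0.26) and the kinetochore gene SPC25 (2.52 ± 0.33). PLK1, the kinase of spindle poles and cytokinesis (1.78 ± 0.23), AURKB, the kinase of the passenger complex (2.21 ± 0.29), TOP2A, which untangles sister chromatids (1.92 ± 0.26), and UBE2C (2.28 ± 0.31) were among the first 20. Cytokinesis genes were the least different, with a median of 1.00 over 4 genes against 2.28 for the APC/C arm and 2.17 for the cyclin-CDK genes. ANLN did not pass (0.58 ± 0.24, adjusted p = 0.082), nor did GAS2L3 (-0.01) or SMC2.

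Between 92 and PC the order of genes was led by ECT2 (2.78 ± 0.21, adjusted p = 2.7e-06), ASPM (3.25 ± 0.25), the passenger and survivin gene BIRC5 (3.24 ± 0.25) and PLK1 (2.95 ± 0.24). AURKB differed by 3.38 ± 0.30 and NDC80 by 3.29 ± 0.31, and SMC2, at 0 to 0.105 CPM in all MSC, was the member not called. Between 92 and 99 PRC1 led (1.43 ± 0.21, adjusted p = 0.00034), followed by ECT2 (1.35 ± 0.20), BIRC5 (1.53 ± 0.24) and KIF11, the motor that pushes spindle poles apart (1.47 ± 0.24). GAS2L3 had the widest gap of the members called there (2.13 ± 0.41), at 4.68, 4.15, 5.81 and 2.41 CPM in 92 against 1.05, 0.378, 1.08 and 1.22 in 99. Not called were AURKA (0.68, adjusted p = 0.054), SPC25 (0.78, 0.06), CDC20 (0.68, 0.081), MAD2L1 (0.31, 0.3) and SMC2.

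**Figure D3:**
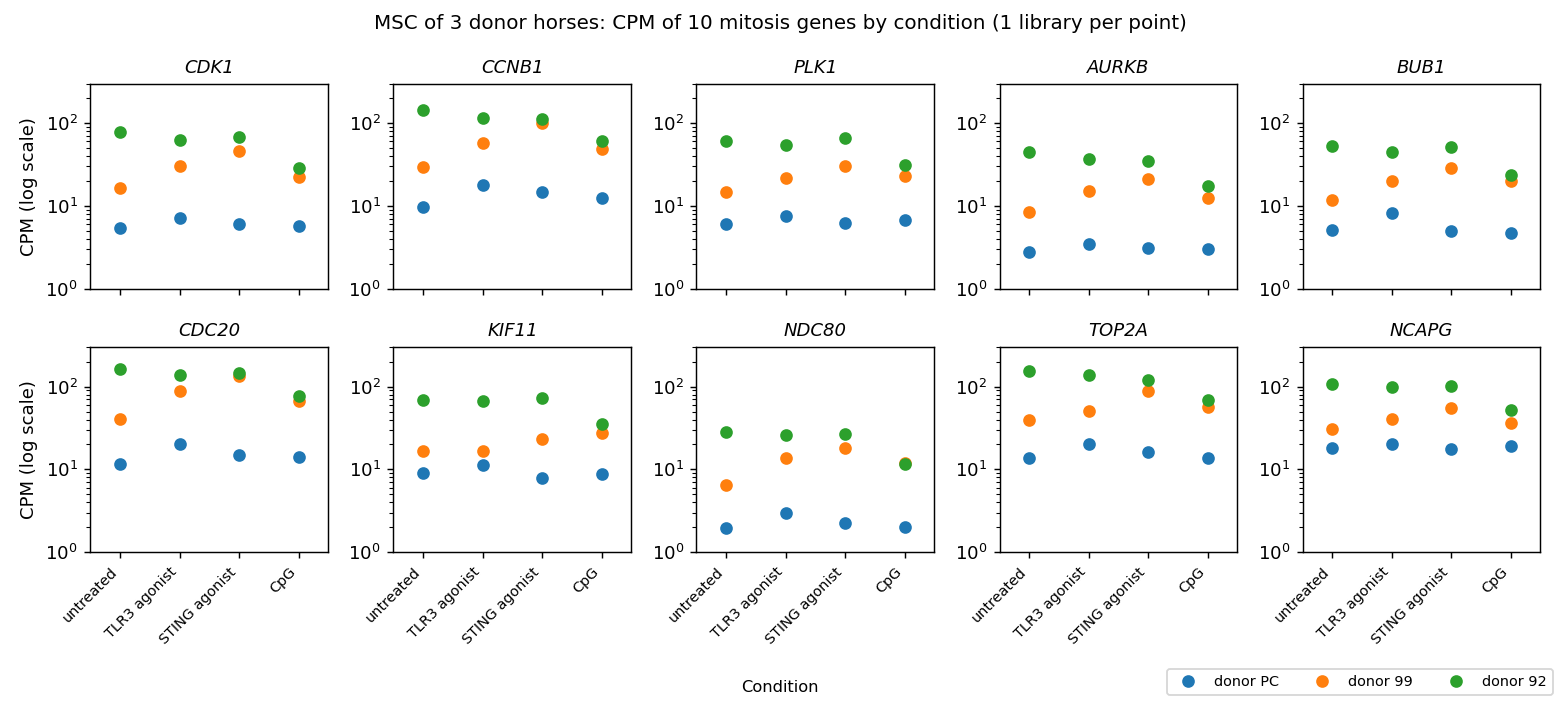
CPM (vertical axis, log scale) of 10 mitosis genes in MSC of donors 92, 99 and PC (points) untreated and after TLR, STING or CpG agonist (horizontal axis). In each panel the PC points lie lowest, and the 92 and 99 points come together at CpG, where CDK1 is at 28.3 and 22.6 CPM.

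Replication genes moved with the module between horses: 35, 38 and 28 of 39 were higher in 99 than PC, 92 than PC and 92 than 99, and 40, 50 and 37 of the 51 further mitosis genes, with none lower in either list. RRM2, a subunit of ribonucleotide reductase, differed by 1.93 and 3.22 against PC, the replication clamp PCNA by 1.16 and 1.46, and MYBL2, the B-MYB gene, by 1.74 and 3.36. FOXM1 differed by 1.84 and 3.01 and the spindle gene SKA1 by 3.55 between 92 and PC. Among 23 regulators, 6, 12 and 12 were higher and 1, 2 and 3 lower, among 16 G1 genes 3, 8 and 3 higher and 2, 6 and 5 lower, and among 15 APC/C subunits 8, 7 and 3 higher and 0, 0 and 2 lower. CDKN1A, the p21 gene, was lower in 92 than in PC (-1.68) and than in 99 (-1.75), at 92.1, 98.1, 118 and 117 CPM in 92 and 301 to 411 CPM in 99 and PC. The CDK inhibitor gene CDKN2A was lower as well (-2.62 and -2.44), and CCNE2, the S-phase cyclin, was higher in 92 (1.94 and 1.29).

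Within these donor differences, activation of MSC gave no mitosis gene that passed the test. Against untreated MSC, TLR activation gave a median log2 fold change of 0.12 over members (0.02 over all 14872 genes), STING activation 0.28 (0.01) and CpG -0.49 (-0.02 over 15099 genes), and STING against TLR activation gave 0.19 (-0.01). By edgeR, 0 of 48 members had an adjusted p under 0.05 in each of the 4, as had 0% of all genes, and 0 had an unadjusted p under 0.05, beside 1.15%, 2.1%, 0.305% and 0.242% of all genes in the order TLR, STING, CpG and STING against TLR. DESeq2 also called 0 members. With the donor as a block, the medians were 0.34, 0.46, -0.18 and 0.13, and 2 members for TLR and 10 for STING were higher with an unadjusted p under 0.05, beside 2.36% and 5.54% of all genes in that fit, with none adjusted.

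Each horse went its own way. With STING activation the median over members was 1.16 in donor 99 (47 higher, 2.24-fold), 0.21 in PC (40 higher, 8 lower) and -0.06 in 92 (19 higher, 29 lower). With TLR activation it was 0.49 in 99 (42 higher), 0.49 in PC (46 higher) and -0.13 in 92 (39 lower). With CpG it was 0.55 in 99 (48 higher), 0.03 in PC and -1.02 in 92 (47 lower, 0.493-fold). Members higher in all 3 donors numbered 16 with STING, where 15.2% of all genes were, and 6 with TLR, beside 6.11%. The medians of the fit without donor moved widely when 1 library was left out. Without the untreated library of 92 they were 1.42 for TLR, 1.61 for STING and 0.88 for CpG. Leaving out 1 library unbalances the donors in these refits, which had no donor term. The differences between donors therefore enter these medians. Such shifts cannot show which library carries a response to activation. The TLR median was below 0 without the TLR library of 92 (-0.66) or the untreated library of PC (-0.35) or 99 (-0.17), and the STING median without the STING library of 92 (-0.33) or the untreated library of PC (-0.20) or 99 (-0.01). The CpG median was lowest without the untreated library of PC (-0.96).

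ESPL1, the separase that cleaves cohesin, had the smallest p of the members in both activations. It was at 23.8, 6.33 and 2.91 CPM in untreated 92, 99 and PC, at 24.4, 11.1 and 6.83 with TLR and at 32.6, 19.7 and 5.15 with STING. All 3 donors were higher in both, but the groups overlapped. The log2 fold changes were 0.39 ± 0.87 and 0.78 ± 0.87, from the fit without donor. The differences between donors enter both that SE and that overlap. CCNB1, the cyclin partner of CDK1, was at 143, 29.8 and 9.58 CPM untreated, 114, 57.5 and 17.7 with TLR, 111, 99.1 and 14.6 with STING and 61.6, 48.7 and 12.3 with CpG. TOP2A was at 156, 39.5 and 13.6 CPM untreated and 68.1, 56.5 and 13.8 with CpG, and MAD2L1 had the smallest p for CpG (-0.64 ± 0.66). Between STING and TLR it was SPC24 (0.48 ± 0.71). With CpG 39 of 39 replication genes and 50 of the 51 further mitosis genes had lower fitted values without donor in the fit (medians -0.55 and -0.45). The donors differed here too. PCNA was at 134, 55.4 and 29.3 CPM in untreated 92, 99 and PC and at 49.4, 58.1 and 31.0 with CpG. MYBL2 was at 236, 40.2 and 16.7, then 110, 58.6 and 16.4. Both fell most in 92 and were higher in 99. No gene of the 5 lists was called in any of these comparisons.

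In synoviocytes, mitosis gene values lay a little lower with CM of activated MSC than with resting MSC-CM, and none passed the adjusted test. The median log2 fold change was -0.26 with TLR-MSC-CM and -0.21 with STING-MSC-CM, over 14584 genes tested, and all 48 members had a lower fitted value in both. By edgeR 0 members had an adjusted p under 0.05, as had 0% of all genes, and DESeq2 called 0. With an unadjusted p under 0.05, 35 members were lower with TLR-MSC-CM, beside 5.1% of all genes, and 16 with STING-MSC-CM, beside 3.94%. All 3 libraries lay below all 3 resting libraries for 16 members with TLR-MSC-CM (4.96% of all genes) and 20 with STING-MSC-CM (5.17%). Both comparisons share the resting libraries, and members measured in the same libraries are not independent of one another.

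GAS2L3 had the smallest p with TLR-MSC-CM, at 17.2, 16.6 and 19.0 CPM in resting CM of AG1, ORC and PC and at 13.9, 11.6 and 13.2 with TLR-MSC-CM, a log2 fold change of -0.45 ± 0.11 (adjusted p = 0.49). Its 3 values did not overlap the resting ones. NCAPG, a condensin subunit (-0.39), was at 71.4, 97.8 and 84.6 CPM, then 68.5, 52.2 and 72.2, and BUB1, the checkpoint kinase, at 49.1, 61.4 and 56.8, then 49.4, 38.3 and 47.9. In both the ORC pair was far apart and the AG1 pair close. With STING-MSC-CM ESPL1 led, at 28.7, 31.1 and 25.1 CPM against 23.6, 22.5 and 22.3 (-0.32 ± 0.09, adjusted p = 0.63).

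The other anchors behaved alike. CDK1 was at 66.3, 67.6 and 70.4 CPM in resting CM, 64.7, 50.1 and 66.3 with TLR-MSC-CM and 66.5, 65.4 and 64.2 with STING-MSC-CM. AURKB was at 25.5, 33 and 26.4, then 27.4, 16 and 22.8, then 24.6, 20.0 and 21.4. For both, the TLR-MSC-CM library of ORC was the lowest of the 9. By role, the medians with TLR-MSC-CM ran from -0.23 for spindle assembly to -0.32 for the mitotic kinases, with CDCA2 and CDCA3 at -0.35. SMC2 differed by -1.27 ± 0.52 with STING-MSC-CM at only 0.482 to 0.624 CPM against 0.181 to 0.284, near the floor.

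The difference was widest with CM of donor ORC. Over the 48 members, the median TLR minus resting difference was -0.65 for ORC (48 lower, 0.639-fold), -0.20 for PC (47 lower) and 0.02 for AG1 (21 lower), and for STING it was -0.39 (48 lower), -0.20 (48 lower) and -0.01 (26 lower). Without the TLR-MSC-CM library of ORC the median was -0.14 and 10 members had an unadjusted p under 0.05, and 15 and 17 did without the resting library of ORC or PC. For STING-MSC-CM the count was 2 and 5 without resting ORC or PC, 3 and 6 without STING ORC or PC, and 24 without resting AG1. STING-MSC-CM against TLR-MSC-CM gave a median of 0.07 (42 higher), with 0 members at an adjusted p under 0.05 by edgeR (0% of all genes) or DESeq2 and 0 at an unadjusted one (2.02%).

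The surrounding genes gave similar values. Of 39 replication genes 38 were lower in both CM, with medians of -0.35 and -0.33 and 24 and 22 at an unadjusted p under 0.05, and of the 51 further mitosis genes 50 and 48 were lower, 34 and 13 of them at that p. In the order TLR then STING, 6 and 4 of 23 regulators, 2 and 4 of 16 G1 genes and 1 and 1 of 15 APC/C subunits had such a p and a lower value. MYBL2 was at 65.1, 102 and 69.6 CPM in resting CM and 65.6, 41.6 and 58.9 with TLR-MSC-CM (-0.50), and PCNA at 46.7, 69.6 and 57.0, then 47.2, 43.2 and 48.3 (-0.32). CCND1 differed by -0.44 and -0.58, CCNE2 by -0.51 and -0.38, FOXM1 by -0.26 and -0.33, CDKN1A by 0.05 and 0.02 and FZR1, the APC/C activator of G1, by -0.05 and -0.10, none of them called.

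In chondrocytes the same contrasts were smaller. The medians were -0.12 with TLR-MSC-CM and -0.14 with STING-MSC-CM, again with 48 of 48 fitted values lower. By edgeR 0 members passed at an adjusted p (0% of all genes in both) or an unadjusted p under 0.05 (0.559% and 0.909%), and DESeq2 called 0. In 32 members all 3 donors were lower with TLR-MSC-CM, beside 13.4% of all genes, and in 33 with STING-MSC-CM, beside 8.48%. With the donor as a block, 16 and 21 members had an unadjusted p under 0.05 and a lower value, beside 1.12% and 1.52% of all genes in that fit, none adjusted. GAS2L3 had the smallest p in both, at 13, 12.9 and 13.7 CPM in resting CM of AG1, ORC and PC, 9.61, 12.2 and 11.6 with TLR-MSC-CM (-0.23 ± 0.13) and 10.9, 12.3 and 11.3 with STING-MSC-CM (-0.22 ± 0.13), below the resting values in all 6 libraries.

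CDK1 was at 48.8, 61.9 and 47.5 CPM in resting CM, 39.8, 57.9 and 44.6 with TLR-MSC-CM and 48.9, 51.2 and 41.5 with STING-MSC-CM, so the ORC libraries were high in every CM. CDC20 was at 78.2, 111 and 76.3, then 61.9, 101 and 71.4, then 65.6, 102 and 64.2. The donor medians were -0.29, -0.08 and -0.08 for TLR in AG1, ORC and PC, and -0.06, -0.12 and -0.19 for STING. Without resting ORC the TLR median was 0.01, and without TLR ORC it was -0.32. These refits had no donor term, so the high ORC libraries enter both values. STING-MSC-CM against TLR-MSC-CM gave -0.02, with 0 members called by edgeR (0% of all genes) or DESeq2 and 0 at an unadjusted p (0.811%), and no gene of the 5 lists reached an unadjusted p under 0.05 with either CM.

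In macrophages the values lay in the other direction with TLR-MSC-CM. The median log2 fold change was 0.33 (1.25-fold, over 15052 genes tested) and 47 members were higher, with GAS2L3 at -0.13. By edgeR 0 members had an adjusted p under 0.05 (0% of all genes), DESeq2 called 0, and 12 were higher with an unadjusted p under 0.05, beside 1.35%, or 21 with donor as a block, beside 3.05% in that fit. In 5 members all TLR-MSC-CM libraries lay above all resting ones, where 4.97% of all genes did, and in 19 all 3 donors were higher, beside 22.9% of all genes. CDCA3, which helps trigger mitotic entry, had the smallest p, at 6.41, 6.72 and 5.77 CPM in resting CM of AG1, ORC and PC and 12.8, 7.72 and 10.2 with TLR-MSC-CM (0.64 ± 0.16, adjusted p = 0.998). All 3 lay above the resting values.

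Its neighbours in p were the spindle genes DLGAP5 (0.55) and ASPM (0.50), NDC80 (0.63), ESPL1 (0.49) and ECT2 (0.39). NDC80 was at 4.95, 5.27 and 5.18 CPM in resting CM and 11.2, 5.62 and 8.16 with TLR-MSC-CM, and CDK1 at 11.1, 9.69 and 11.9, then 18.4, 10.6 and 14. The AG1 library was the highest of the 11 macrophage libraries for both. By donor, the median over members was 0.73 in AG1 (48 higher, 1.66-fold), 0.29 in PC (45 higher) and -0.02 in ORC (20 higher, 28 lower). Without the TLR-MSC-CM library of AG1 the median was 0.15 and 1 member had an unadjusted p under 0.05. The count was 37 without TLR ORC (median 0.49), 4 without resting AG1 or TLR PC and 5 without resting ORC. No share of all genes is given for these refits.

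That AG1 library also stood apart in markers. Its T and NK cell markers summed to 915 CPM, above the 508 to 637 of the other 10 macrophage libraries, with 9 of the 11 above all of them, and its macrophage markers to 10021 CPM, below 10732 to 13910, with 9 of 15 below. Its 4 B cell markers summed to 9.74 CPM against 4.73 to 9.61, with 1 above. Their part in the mitosis gene values was not tested.

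STING-MSC-CM gave no such shift in macrophages. The median was -0.01 with 23 members higher, 0 at an adjusted p (0% of all genes) and 0 at an unadjusted p under 0.05 by edgeR (4.76%), 0 called by DESeq2, and ANLN had the smallest p (0.27 ± 0.19, adjusted p = 0.91). Against TLR-MSC-CM, STING-MSC-CM gave a median of -0.31 with 46 members lower, 0 adjusted by edgeR (0% of all genes) or DESeq2 and 12 at an unadjusted p, beside 3.82%, led by CDC20 (-0.59 ± 0.16, adjusted p = 0.70) and AURKB (-0.54). CDC20 was at 9.65, 9.67 and 10.9 CPM with STING-MSC-CM and 20.1, 11.5 and 15.5 with TLR-MSC-CM, with no overlap. Without TLR AG1 the count was 1 (median -0.15), and it was 31 without TLR ORC, 3 without STING ORC, 4 without TLR PC and 5 without STING AG1. Both comparisons use the same TLR or STING libraries as those above. FOXM1 was at 2.57, 3.23 and 4.04 CPM in resting CM and 7.55, 4.05 and 5.42 with TLR-MSC-CM (0.72 ± 0.24, not called), MYBL2 differed by 0.33, and 37 of 39 replication genes and 44 of the 51 further mitosis genes were higher, 5 and 6 at an unadjusted p under 0.05.

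**Figure D4:**
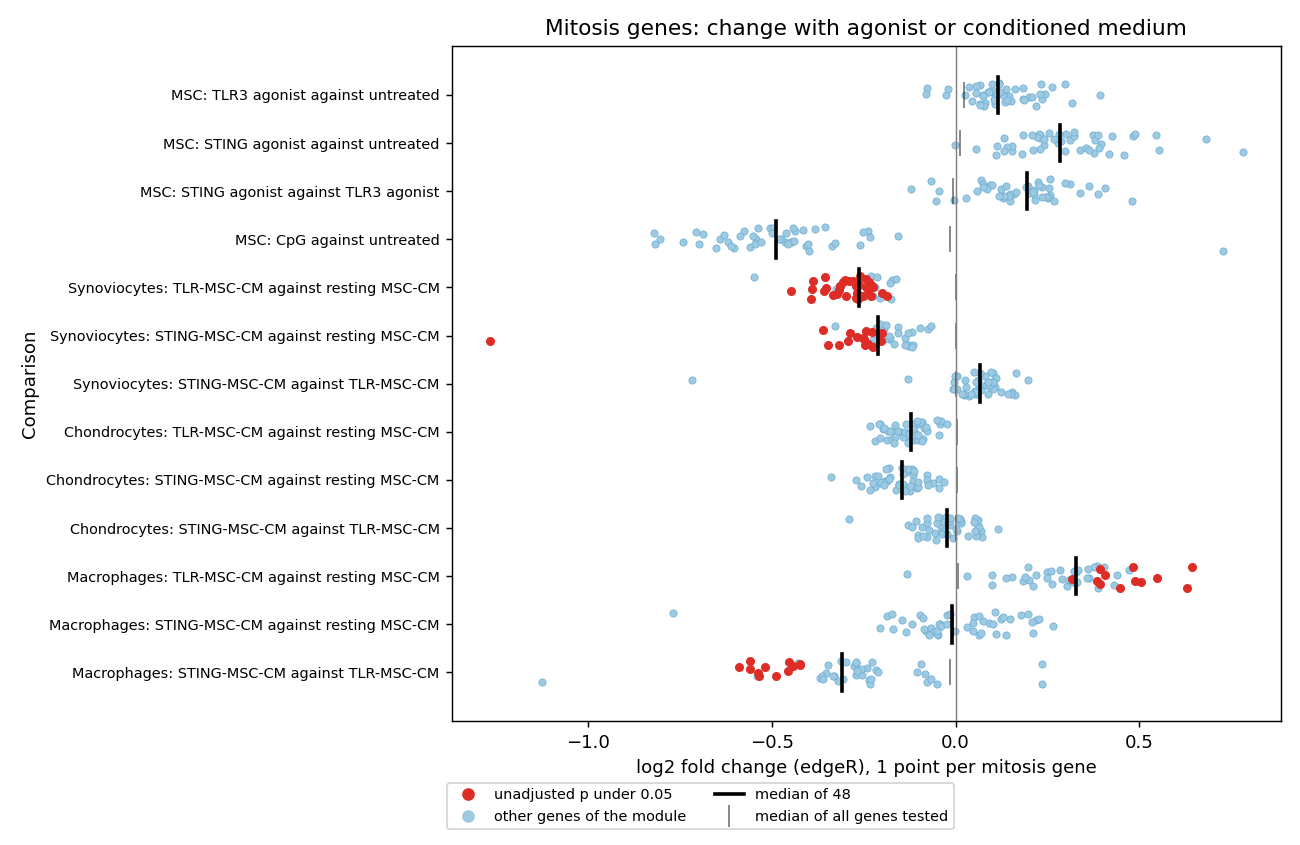
Log2 fold changes (horizontal axis) of the 48 members (points) in the 13 comparisons of MSC conditions and of CM within each cell type (vertical axis), with red points for an unadjusted p under 0.05, black bars for the median of the 48 and grey bars for that of all genes. Red points lie below 0 in the synoviocyte comparisons with resting MSC-CM (35 and 16 members), above 0 for macrophages with TLR-MSC-CM (12) and below 0 for STING-MSC-CM against it (12), and no member passed after adjustment.

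Whether the 3 recipient cell types responded differently to TLR-MSC-CM was tested itself, over 27 joint cell libraries. By edgeR, macrophages minus synoviocytes gave a median of 0.59 with 48 members higher, 0 at an adjusted p under 0.05 (0% of all genes) and 33 higher at an unadjusted one, beside 2.32%. ECT2 had the smallest p (0.63 ± 0.20). Macrophages minus chondrocytes gave 0.47 with 48 higher, 0 adjusted (0%) and 9 unadjusted, beside 1.65%, or 32 with donor as a block, beside 2.87% in that fit. Chondrocytes minus synoviocytes gave 0.12 with 0 adjusted (0%) and 0 unadjusted (1.72%), the smallest p being that of NCAPG. The count of 33 was 7 without the macrophage TLR library of AG1 or the synoviocyte TLR library of ORC, 17 without macrophage resting AG1, 19 without macrophage TLR PC, 21 without synoviocyte resting ORC and 22 without macrophage resting ORC. The count of 9 was 2 without chondrocyte TLR AG1, 3 without chondrocyte resting ORC or macrophage TLR AG1, and 4 without chondrocyte TLR PC. It was 33 without macrophage TLR ORC and 36 without chondrocyte TLR ORC. These refits too have no share of all genes beside them.

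For STING-MSC-CM the same differences were 0.06 for chondrocytes minus synoviocytes, 0.22 for macrophages minus synoviocytes and 0.14 for macrophages minus chondrocytes. By edgeR 0 members passed in each at an adjusted p (0% of all genes) or at an unadjusted p under 0.05, beside 1.74%, 4.38% and 3.59% of all genes, and 0, 6 and 4 were higher with an unadjusted p under 0.05 with donor as a block, the last 2 beside 5.15% and 4.08% in that fit. DESeq2 called 0 members in all 6 of these differences.

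In chondrocytes, mitosis gene values differed between libraries given CM of different MSC donors. With the CM condition as a term, 44 of 48 members were higher with CM of ORC than of PC at an adjusted p under 0.05, beside 18.7% of all 14304 genes, and 1, ASPM, was lower, beside 18.1%. The median was 0.39, and the 3 ORC libraries lay above the 3 PC libraries for 39 members, beside 22.4% of all genes. Against AG1, 41 were higher, beside 18.5% of all genes, and ASPM again lower, beside 18.9%, with a median of 0.43. The 2 comparisons share the ORC libraries. Each donor of CM was 1 animal, with 1 library per CM condition. These p-values, and those for donors of CM below, measure spread among such libraries, not among donors. AG1 against PC gave -0.06, with 0 members at an adjusted p by edgeR (0.0559% of all genes), 0 by DESeq2 and 6 lower at an unadjusted one (7.39%), where HMMR had the smallest p (-0.28, adjusted p = 0.12).

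The kinetochore gene SPC24 led against PC, at 26.9, 21.4 and 23.0 CPM with resting, TLR and STING CM of ORC, 14.6, 13.3 and 11.8 with CM of PC and 12.5, 11.9 and 12.5 with CM of AG1 (0.88 ± 0.09, adjusted p = 1.7e-06 against PC, and 1.01 ± 0.09 against AG1). CDCA3 was at 65.5, 58.1 and 63.6 CPM with ORC, 39.1, 39.8 and 37.7 with PC and 40.6, 33.7 and 33.3 with AG1 (0.72 ± 0.07, adjusted p = 2.4e-06, and 0.87 ± 0.07, adjusted p = 3.1e-07). For both, the ORC values lay above the other 6 without overlap. CCNB1 was at 97.8, 93.6 and 90.9 CPM with ORC and 69.7, 64.7 and 61.7 with PC (0.57 ± 0.06, adjusted p = 5e-06), CDC20 differed by 0.61 ± 0.06, KIF20A by 0.67 ± 0.08, BUB1 by 0.60 ± 0.08, TOP2A by 0.59 ± 0.08 and PLK1 by 0.53 ± 0.07. ASPM ran against them, at 127, 118 and 107 CPM with ORC, 175, 173 and 153 with PC and 169, 127 and 146 with AG1 (-0.47 ± 0.07, adjusted p = 0.00012 against PC).

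By role, all 4 cyclin-CDK genes, all 6 motors, all 6 kinetochore genes and all 3 passengers were called higher against PC, with medians of 0.35, 0.36, 0.42 and 0.43. GAS2L3, AURKA and SMC2 were not called. Of 39 replication genes 28 were higher and 2 lower, of 51 further mitosis genes 35 and 2, of 15 APC/C subunits 4 and 0, of 16 G1 genes 6 and 1, and of 23 regulators 3 and 1. MYBL2 was at 100.5, 83.2 and 107.5 CPM with ORC against 53.9, 50.6 and 45.1 with PC (0.99 ± 0.09), FOXM1 differed by 0.48, CDKN2A by 1.13, CCND1 by 0.76 and the CDK inhibitor gene CDKN1C by -0.92.

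The 3 chondrocyte libraries with CM of ORC stood apart in cell markers too. The cartilage transcription factor gene SOX9 was at 42.1 to 67.6 CPM in them and at 7.53 to 10.6 in the 6 with CM of AG1 or PC, the adhesion gene VCAM1 at 18.8 to 30.1 against 234 to 281, the surface gene THY1 at 192 to 237 against 45 to 72.8 and CD44 at 247 to 279 against 490 to 582. The library with no addition was at 48.8 CPM for SOX9 and 189 for THY1, near the ORC libraries, and at 215 for VCAM1, near the others, and that with cytokines alone at 8.95, 44.8 and 265. The 10 chondrocyte markers summed to 489 to 624 CPM with ORC against 160 to 246, with 3 markers above and 1 below all 6 others. The mean level of the 48 members was 5.54 to 5.65 with CM of ORC and 5.07 to 5.34 in the other 6. It was 5.62 with no addition, where no CM was given, and 4.88 with cytokines alone. Both of those libraries carry the name ORC in a label, although neither was given CM. Whether the libraries with CM of ORC differ from the others in their cells or in their medium was not tested.

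**Figure D5:**
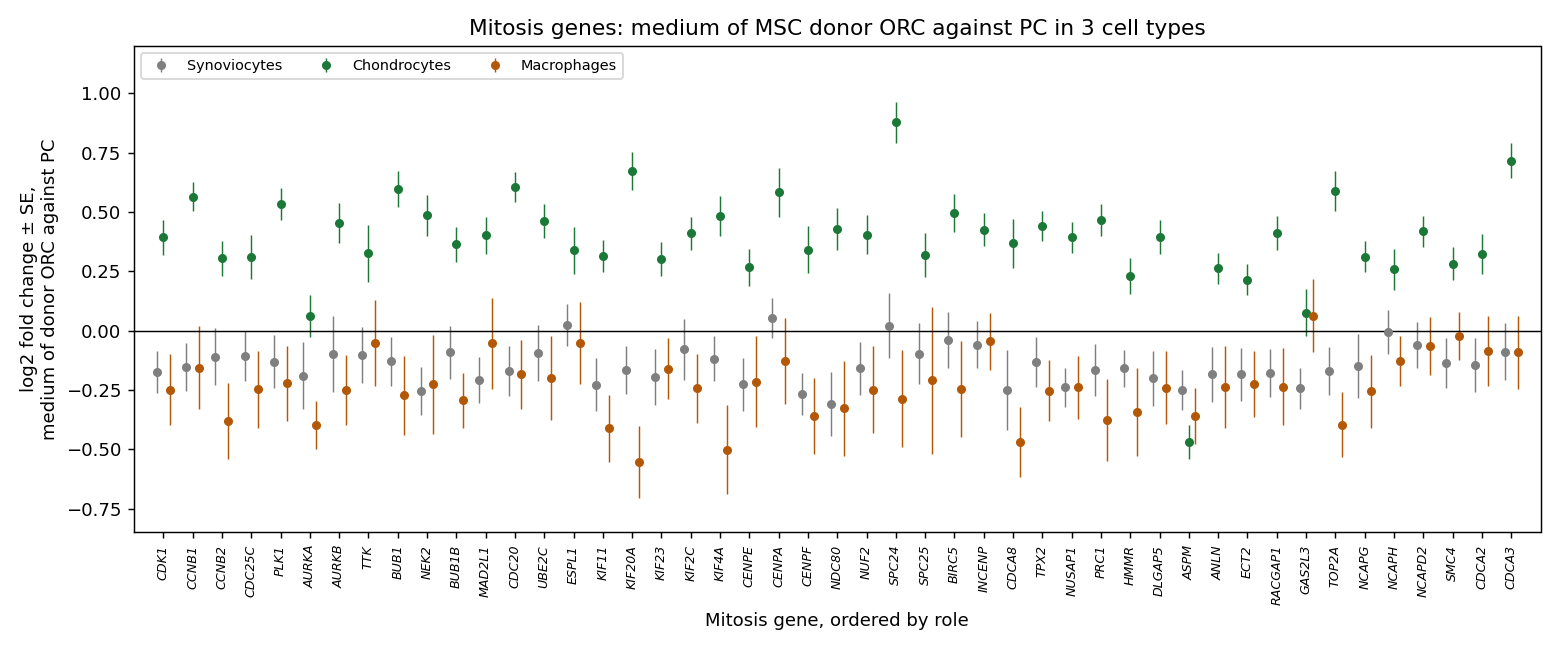
Log2 fold change with SE (vertical axis) for CM of donor ORC against donor PC, for each member (horizontal axis), in synoviocytes, chondrocytes and macrophages, with SMC2 left out for its low counts. Chondrocyte points lie above 0 with ASPM (-0.47) below, while most synoviocyte and macrophage points lie below 0, with medians of -0.15 and -0.24.

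The same CM donors gave other values in the other recipients. In synoviocytes ORC against PC had a median of -0.15, with 0 members adjusted (0% of all genes) and 6 lower unadjusted (1.9%), ORC against AG1 -0.14, with 0 (0%) and 4 lower (1.41%), and AG1 against PC -0.01, with 0 (0%) and 0 unadjusted (2.39%), all by edgeR, and DESeq2 called 0 in each. Without the synoviocyte resting library of ORC, 27 members were called lower for ORC against PC (median -0.28), beside 2.77% of all genes, and 22 for ORC against AG1, beside 2.51%. In macrophages ORC against PC had a median of -0.24 with 47 members lower, 0 adjusted by edgeR (0.279% of all genes) and 1 by DESeq2, 10 lower unadjusted (7.15%) and 20 without overlap (9.91%), and the smallest p was that of AURKA (-0.40, adjusted p = 0.11). No share of all genes is given for the DESeq2 call.

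Comparisons with CM of AG1 in macrophages called a smaller share of the members than of all genes. GAS2L3 was at 5.42, 5.57 and 8.55 CPM with resting, TLR and STING CM of AG1, 11.7, 10.4 and 10.1 with PC and 11.1, 10.48 and 11.8 with ORC, so that the AG1 values lay below the other 6. It was the 1 member lower for AG1 against PC (-0.79 ± 0.16, adjusted p = 0.0068, beside 8.98% of all genes) and the 1 higher for ORC against AG1 (0.86 ± 0.16, adjusted p = 0.0053, beside 5.91%), where AURKA was lower (-0.38 ± 0.10, adjusted p = 0.036, beside 4.23%). The first call was lost without the resting library of PC (-0.69) or the TLR library of PC (-0.75), and that of AURKA without the CM condition as a term (-0.38) and without resting AG1 (-0.31), TLR AG1 (-0.32), resting ORC (-0.34), STING ORC (-0.34) or resting PC (-0.37). The macrophages with CM of AG1 also had less CD163, a scavenger receptor gene, at 65.3 to 172 CPM against 285 to 613 with the other donors, whose part was not tested.

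The difference between recipients was then tested itself, in a comparison added after the data had been seen. Chondrocytes minus synoviocytes gave a median of 0.53 for the ORC against PC effect, with 25 members higher at an adjusted p under 0.05, beside 6.06% of all genes, and chondrocytes minus macrophages gave 0.68 with 32, beside 6.64%. KIF20A led both (0.83 ± 0.15, adjusted p = 0.00087, and 1.25 ± 0.18, adjusted p = 6.3e-05), followed by NUSAP1 (0.62 ± 0.12) in the first and TOP2A (1.00 ± 0.19) in the second. In chondrocytes KIF20A was at 157, 154 and 146 CPM with ORC and 97.8, 99.9 and 96.4 with PC. In macrophages it was at 4.72, 5.54 and 6.92 with ORC and 7.44, 9.50 and 8.64 with PC, also without overlap and in the opposite order.

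Cytokines alone and no addition had 1 library each per cell type, so these values have no replicate check. In chondrocytes the library with cytokines alone had less mitosis gene RNA than that with no addition, with a median ratio of 0.566 over members, 46 lower and 9 at least 2-fold lower, where 8.07% of all genes were at least 2-fold lower. CDC20 was at 52.0 against 129 CPM, KIF20A at 63.5 against 169 and CDK1 at 38.9 against 51.8. These 2 libraries also differed in markers, the 10 chondrocyte markers summing to 166 CPM with cytokines against 768 with no addition, the 8 synovial fibroblast markers to 6821 against 11388, and SOX9 being at 8.95 against 48.8, and the part of this in the mitosis gene values was not tested. In synoviocytes the ratio was 1.11 with 1 member, SMC2, at least 2-fold higher (4.62% of all genes), and in macrophages 1.06 with 0 members past 2-fold in either direction (4.28%).

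Set against the 3 resting MSC-CM libraries, the cytokine library of synoviocytes lay below all 3 for 48 members, beside 24.6% of all genes, and that with no addition also for 48, beside 31.9%. In chondrocytes the cytokine library lay below for 48 members, beside 22.8%, while that with no addition lay below for 5, beside 24.3%, and above for 22, beside 38.2%. In macrophages the cytokine library lay below for 13 (24.7% of all genes) and above for 10 (21.8%), and that with no addition below for 19 (34.2%) and above for 8 (20.9%). TOP2A was at 162 and 153 CPM in synoviocytes with cytokines and with no addition, where resting CM gave 184, 225 and 223, at 98.6 and 163 in chondrocytes, where resting CM gave 146, 194 and 141, and at 46.9 and 42.6 in macrophages, where it gave 45.2, 43.9 and 56.3.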

How the data were processed

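PolyA RNA of 12 MSC and 33 joint cell libraries was sequenced. The authors trimmed reads with Cutadapt 1.12, aligned them with STAR to EquCab3.0 and counted them per protein-coding gene with HTSeq 0.11.0, and deposited raw counts for each library, of which 41 of the highest values are written to 3 significant digits. Members were matched by symbol, and 3970 of the 20881 genes carry only an Ensembl ID. The members, lists and comparisons were chosen with earlier results of these data known.

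CPM were computed on the total counts. A gene entered a fit with at least 10 counts in total there, and was tested by edgeR 4.0.16 (R 4.3.3, limma 3.58.1) with TMM scaling (factors 0.910 to 1.10), quasi-likelihood tests and Benjamini-Hochberg adjustment over all genes at 0.05. MSC conditions were fitted over 9 libraries, or 12 with CpG, media over the 9 libraries of a cell type, cell types over 27, and donors with condition as a term. The scripts were tested on simulated counts. Library groups came from the labels.

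Named genes were a set of anchors (CDK1, CCNB1, PLK1, AURKB, BUB1, CDC20, KIF11, NDC80, TOP2A and NCAPG, with CCNA2 and MKI67 not matched), up to 20 members called per direction in order of p, the member with the smallest p where none was called, and up to 2 called genes per direction of the lists of regulators, G1 genes, replication genes, APC/C subunits and further mitosis genes. FOXM1, MYBL2, CDKN1A, CCND1, CCNE2, PCNA and FZR1 were always considered. CDCA3, KIF20A and SMC2 in some comparisons, and the marker genes, were named after their values were seen.

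Alternatives were DESeq2 1.42.0, other scaling, another expression filter (filterByExpr of edgeR), and donor as a block. Others were donors without the condition term, other sets of libraries and leaving out each library. Same-donor libraries deviated together in MSC (r = 0.716 to 0.915, over genes with a mean count of 50 or more), chondrocytes (0.616 to 0.912) and macrophages (0.375 to 0.620) and not in synoviocytes (-0.434 to 0.422). Pairs of different donors ran from -0.752 to 0.192 in MSC, -0.813 to 0.662 in chondrocytes and -0.640 to 0.429 in macrophages. In chondrocytes and macrophages they thus overlapped the same-donor pairs. The pairing comes from the donor names in the labels. Cytokine and no-addition libraries carry a donor name in 1 label although no MSC medium was given, and were used without it. That name was PC for synoviocytes with cytokines and ORC for the others. Whether the name marks the donor of the medium in every library cannot be told from the labels. No genome was used, so no sequence is given.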

Additional observations from a re-analysis of the deposited data

Results flagged for a closer look

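In 2 cell types given CM of the same donors, the mean level of the 48 mitosis genes differed in opposite directions between donors in all 3 libraries each. ORC minus PC was 0.335 in chondrocytes and -0.230 in macrophages on the mean log2(CPM + 1) scale. The difference between the cell types was tested gene by gene with edgeR, in a comparison added after the data had been seen, and 32 of the 48 members passed at an adjusted p under 0.05, by a median of 0.68 on the log2 scale. That test does not show opposite directions: for ORC against PC within macrophages 0 members passed by edgeR at an adjusted p, 10 were lower at an unadjusted p under 0.05 and DESeq2 called 1. The shares of all genes beside the 32 and the 10 stand with the results above. None is given for the DESeq2 call. The chondrocyte library with no addition, given no CM, had a level of 5.62, within the 5.54 to 5.65 of the ORC libraries. A label names it ORC, and so does that of the chondrocyte library with cytokines alone, at 4.88. The chondrocyte libraries with CM of ORC also differed in markers such as SOX9 (42.1 to 67.6 CPM against 7.53 to 10.6). Whether their cells or their medium differ was not tested.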

How the results depend on the processing

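Over the alternatives that kept all libraries, 804 log2 fold changes of named members kept their direction and their side of the threshold and 1 lost its call. When each library was left out in turn, 1391 kept theirs and 52 lost the call. The block changed no call of a comparison other than those given with the results. Chondrocytes against synoviocytes called 42 members with the block (paired by donor), 21 with the 9 resting libraries alone and 3 to 21 without 1 library. Without 1 library, the CpG median ran from -0.96 to 0.88, in a fit without donor, where the donor left out shifts the median. The counts of such refits ran from 0 to 27 for synoviocyte ORC against PC and 0 to 22 for ORC against AG1. The AG1 against PC median there ran from -0.11 to 0.094 (the latter without the resting library of AG1). In macrophages, ORC against PC called 1 member by DESeq2 and 0 to 1 without 1 library (median -0.34 to -0.079), AG1 against PC 2 by DESeq2 and 0 to 4 (4 without the TLR library of AG1 and 3 without that of ORC) (median -0.22 to 0.056, above 0 without the resting library of AG1, at 0.056, or its STING library, at 0.030), and ORC against AG1 1 without the condition term and 1 to 2 (median -0.33 to 0.011, the latter without the TLR library of AG1). No share of all genes stands beside these counts of called members. They show only how a count depends on the fit and are not results about the members. The causes were not tested. DESeq2 called 0 members over the 13 comparisons of MSC conditions and of media. Each contrast rests on 3 cultures a group, and members near the floor, such as SMC2, were limited by depth.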
